A study of Mus musculus with 9 samples.

Results

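Transcript levels in the brain were compared between the strain B6By.C.132.54 and BALB/cJ, using 6 of the 9 arrays of a study of 3 mouse strains. The 3 B6By.C.132.54 arrays and the 3 BALB/cJ arrays were taken by strain from the sample titles, and the other 3 arrays, of C57BL/6ByJ, are given beside them. The strain name follows congenic nomenclature, in which segments of a donor (C, for BALB/c) lie on the background of another strain (B6By, for C57BL/6By). Which segments are of donor origin is not given in the sources used here. All mice of the 3 groups were adult males, 11 ± 1 weeks old and untreated, and the labels name no transgene. Each array held a pool of 10 hemispheres from which the cerebellum had been left out, so that 30 mice stood behind each strain and 90 behind the study. The array was the Affymetrix Mouse Genome 430 2.0, on which a probe set reports the summed hybridisation to several short probes of 1 transcript.

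C57BL/6 and BALB/c mice are inbred strains that were separated long ago, and they differ in voluntary alcohol intake, in anxiety-like behaviour and in stress responses. In an inbred strain every animal carries the same alleles. A congenic strain shares most of its genome with the background strain and, over the introgressed segments, with the donor. Against the donor, it therefore differs over most of the genome.

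Signal intensities were used as log2 values, and a difference is given as B6By.C.132.54 minus BALB/cJ with its standard error (SE). The median log2 intensity of all probe sets was 3.97, and a probe set below it is called dim here. A probe set is called where its limma p-value, adjusted by Benjamini-Hochberg over all 45037 probe sets, was under 0.05. A gene stands for its brightest probe set over the 9 arrays. Array medians lay between 15.49 and 15.99 in linear intensity. Replicate 3 of B6By.C.132.54 stood apart from the other 8 arrays by a narrow interquartile range, 2.73 against 2.84 to 2.98, and correlated least with the arrays of the same strain (mean r 0.988). Without that array 172 genes were called in place of 201. The neuronal genes Snap25 and Camk2a were bright in B6By.C.132.54, at 10.90 and 9.91, and the cerebellar genes Pcp2, Gabra6 and Cbln3 were dim, at 3.75, 3.30 and 3.81. The haemoglobin gene Hba-a1, at 3.14, and the pituitary hormone genes Gh and Prl, at 3.55 and 3.23, were dim as well, as was Xist, at 3.75.

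In B6By.C.132.54, 107 of 18193 genes were higher than in BALB/cJ (0.588%) and 94 were lower (0.517%), which made 201 called genes (1.1%). Over single probe sets, 575 of 45037 were called (1.28%), with 321 higher (0.713%) and 254 lower (0.564%). The changes were mostly small. Among the higher genes the median difference was 0.87, 36 (0.198% of all genes) were at least 2-fold and 17 were under 1.5-fold. Among the lower genes the median difference was -0.80, 31 (0.17%) were at least 2-fold and 21 were under 1.5-fold. In all 201 called genes the 3 arrays of the strains did not overlap, and over all genes the arrays did not overlap in 9.77%. Since the calls were made on these same arrays, the lack of overlap is not separate evidence for them. Replicate number was taken to pair the arrays, which was clear only for replicate 1. With it as a block 319 genes were called (1.75%), 169 higher (0.929%) and 150 lower (0.824%), which included all 201 genes called without it.

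**Figure D1:**
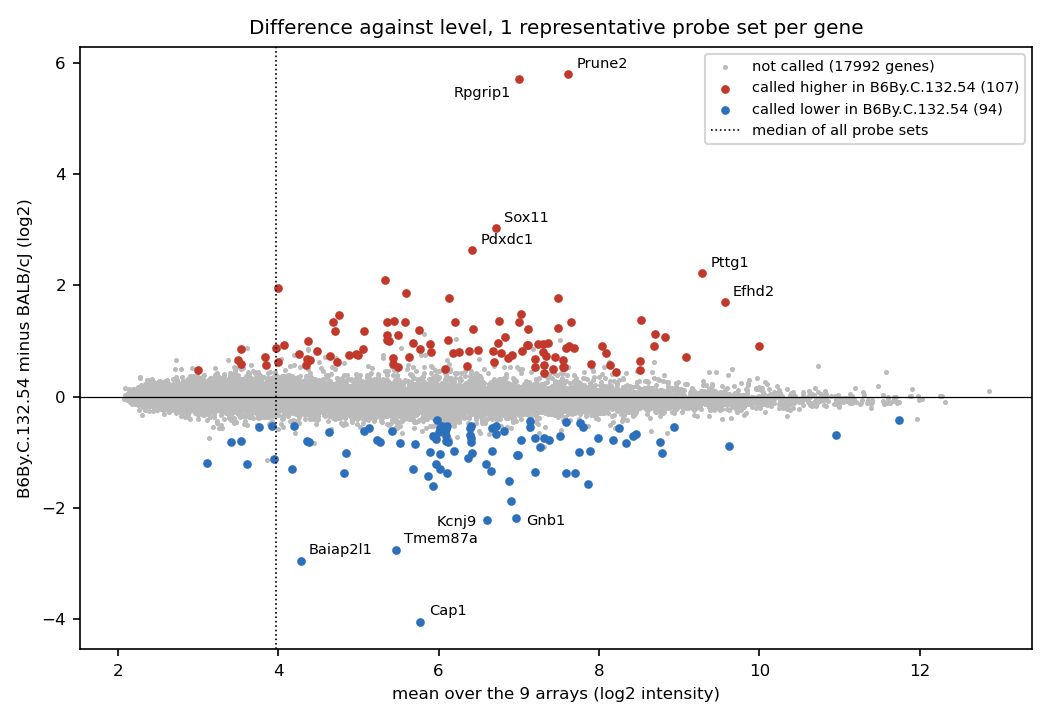
Each point is 1 of 18193 genes, placed by its mean log2 intensity over the 9 arrays (x axis) and its difference B6By.C.132.54 minus BALB/cJ on the log2 scale (y axis). The 107 genes called higher are red, the 94 called lower are blue, and the dotted line is the median of all probe sets, 3.97. Prune2 and Rpgrip1 stand at the top, where BALB/cJ was dim and the plotted difference is not exact, and Cap1 stands at the bottom, at -4.04.

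At the called genes B6By.C.132.54 lay near C57BL/6ByJ. Across the 107 higher genes B6By.C.132.54 minus C57BL/6ByJ ran from -0.48 to 0.25, with a median of -0.07. C57BL/6ByJ minus BALB/cJ ran from 0.35 to 5.88 over the same genes, with a median of 0.93. Across the 94 lower genes B6By.C.132.54 minus C57BL/6ByJ ran from -0.51 to 0.26 (median -0.10) and C57BL/6ByJ minus BALB/cJ from -4.11 to -0.20 (median -0.69). These comparisons share arrays, so their values are set side by side and not counted as separate evidence. Over all probe sets, limma called 0 between B6By.C.132.54 and C57BL/6ByJ with the replicate block or without it, against 644 (1.43%) between C57BL/6ByJ and BALB/cJ. An unadjusted limma p under 0.05 was found for 1751 probe sets (3.89%) between B6By.C.132.54 and C57BL/6ByJ, and for 3378 (7.5%) between B6By.C.132.54 and BALB/cJ. With no difference at any probe set and arrays that vary independently, a share of about 0.05 would pass this threshold. Deviations from the strain means correlated at 0.542, 0.147 and 0.266 between same-numbered arrays of B6By.C.132.54 and C57BL/6ByJ. The share of 3.89% therefore cannot show that these strains did not differ.

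Among genes measured above the dim range in both strains, the largest rises were in Sox11, Pdxdc1 and Pttg1. Sox11, a transcription factor of young neurons, read 7.60, 7.89 and 7.60 in B6By.C.132.54 and 4.49, 4.85 and 4.68 in BALB/cJ. Its difference was 3.02 ± 0.13 (SE, 3 arrays per strain), 8.12-fold, with a limma adjusted p of 4.93e-07. The C57BL/6ByJ mean was 7.77. Of the other 5 probe sets of Sox11, 0 were called higher and 1 was called lower, so that its probe sets did not move together. Doublecortin (Dcx), a microtubule protein of migrating neurons, read 6.26, 7.01 and 6.72 against 4.60, 4.94 and 5.16. All B6By.C.132.54 arrays lay above all BALB/cJ arrays, and the difference was 1.76 ± 0.22 (adjusted p = 0.00134). The other 3 probe sets of Dcx were not called.

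Pttg1 encodes securin, the inhibitor of the protease that separates sister chromatids. Its B6By.C.132.54 arrays read 9.95, 10.03 and 10.06, and its BALB/cJ arrays 7.71, 7.90 and 7.76. C57BL/6ByJ averaged 10.06 ± 0.12 (SD, n = 3). The rise was 4.67-fold (2.22 ± 0.09, adjusted p = 3.76e-07), and all 3 of its probe sets were called higher. Pdxdc1, a gene for a protein with a pyridoxal-dependent decarboxylase domain, rose 6.23-fold, with 7.16, 7.36 and 7.23 against 4.27, 5.15 and 4.41. Of its other 3 probe sets, 1 was called higher and 1 lower. Stk25, a protein kinase of the Golgi apparatus and of neuronal polarity, rose 3.43-fold, from a mean of 6.29 to one of 8.07. Efhd2, a calcium-binding protein also called swiprosin, rose 3.25-fold, from 8.42 to 10.12, and its other probe set was not called.

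The other large rises on this scale were in Mboat2, Pgbd5, Ighm and a probe set annotated to the microRNA gene Mir1931. Mboat2, an acyltransferase of membrane phospholipids, rose 2.80-fold, and Pgbd5, a brain gene derived from a piggyBac transposase, 2.60-fold. The other probe set of Mboat2 was not called. The immunoglobulin heavy chain gene Ighm read 6.69, 7.57 and 7.31 against 5.58, 6.03 and 5.85, a rise of 2.58-fold, and 1 of its other 10 probe sets was also called higher. The Mir1931 probe set read 5.90, 6.41 and 6.15 against 3.93, 4.59 and 4.35, a rise of 3.64-fold. All 4 genes had C57BL/6ByJ means within 0.20 of the B6By.C.132.54 means.

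The largest fall was in Cap1, a regulator of actin filament turnover. It read 4.19, 4.60 and 4.56 in B6By.C.132.54 and 8.17, 8.74 and 8.56 in BALB/cJ. The strains were thus 16.5-fold apart (-4.04 ± 0.16, adjusted p = 2.11e-07), and the other probe set of Cap1 was called in the same direction. Tmem87a, a membrane protein of the Golgi apparatus with 1 probe set, read 4.61, 4.59 and 4.52 against 7.63, 7.08 and 7.26, a fall of 6.71-fold. C57BL/6ByJ lay with B6By.C.132.54 in both, at 4.38 and 4.51.

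Of the genes of G protein signalling to potassium channels, 2 of 16 fell and 14 were not called, where 0.517% of all genes were called lower. Kcnj9, which encodes the GIRK3 subunit of the inwardly rectifying channels that Gβγ opens, read 5.76, 6.05 and 5.26 in B6By.C.132.54 and 8.12, 7.67 and 7.94 in BALB/cJ. The fall was 4.65-fold (-2.22 ± 0.18, adjusted p = 6.02e-05), and the C57BL/6ByJ mean, 6.21, lay 0.51 above that of B6By.C.132.54. Among the 4 probe sets of Kcnj9, 2 were called lower and 1 was called higher. Gnb1, the Gβ1 subunit, read 6.49, 6.15 and 5.89 against 8.34, 8.42 and 8.33, a fall of 4.55-fold, with 1 of its other 2 probe sets called the same way. The partner subunits were not called: Kcnj3 (GIRK1) differed by -0.02, Kcnj6 (GIRK2) by 0.01 and Gnb2 by -0.07, with SE of 0.09, 0.11 and 0.14.

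Other large falls included Alad, Casp9 and Mtm1. Alad, which joins aminolevulinate molecules in haem synthesis, read 6.22, 6.59 and 6.36 against 7.74, 8.04 and 7.92, and both of its probe sets were called lower. It fell 2.84-fold (adjusted p = 0.000176), and the other 6 measured haem synthesis genes were not called. Casp9, the initiator caspase of the mitochondrial death pathway, fell 2.67-fold with all 3 of its probe sets called, and Mtm1, the phosphoinositide phosphatase myotubularin, fell 2.59-fold. Erdr1, an X-linked gene in the annotation used, fell 3.64-fold, Hddc3 3.04-fold and Prrc2c 2.95-fold. In none of these 3 was another probe set of the gene called, although Prrc2c has 6 in all.

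**Figure D2:**
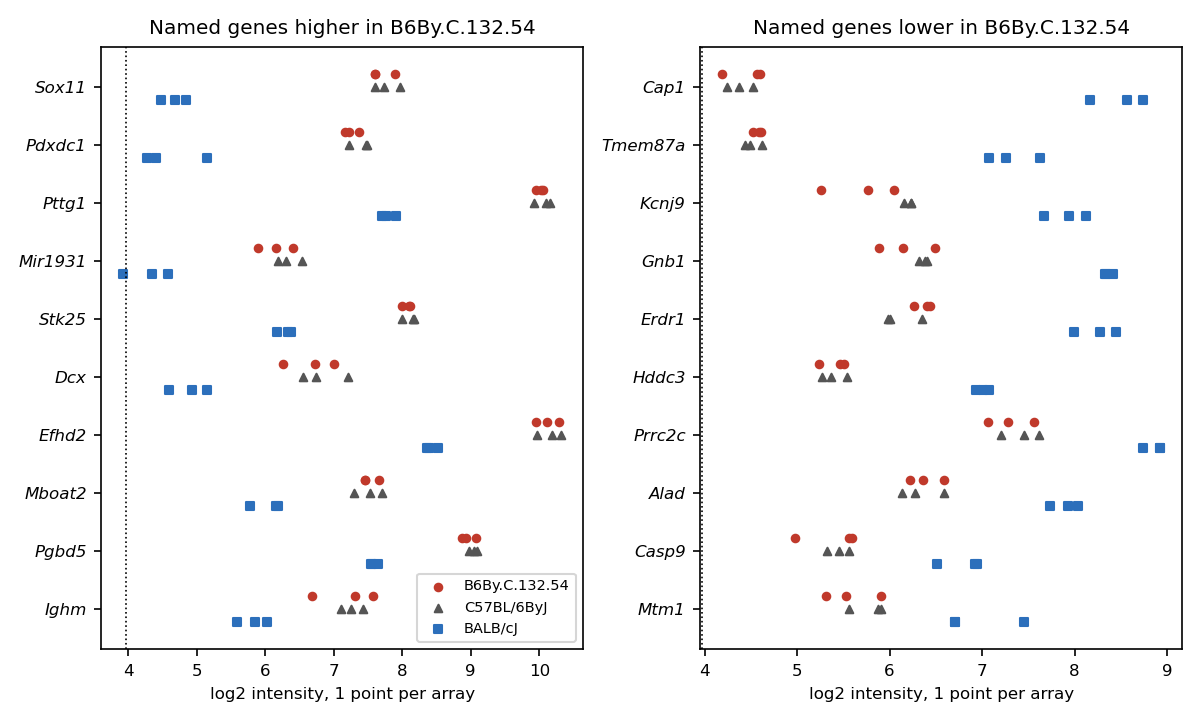
Log2 intensity (x axis) of the 10 largest rises (left) and 10 largest falls (right) among genes with both strain means at or above 3.97, with 1 point per array and 3 arrays per strain. Red circles are B6By.C.132.54, grey triangles C57BL/6ByJ and blue squares BALB/cJ. The genes were chosen with BALB/cJ and B6By.C.132.54 arrays not overlapping, and the C57BL/6ByJ arrays lie near those of B6By.C.132.54.

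In a further group the lower strain was dim, so that levels and not folds are given. Prune2, a large protein of neurons, read 9.66, 9.56 and 9.35 in B6By.C.132.54 and 3.85, 3.69 and 3.66 in BALB/cJ. Rpgrip1, a scaffold of the photoreceptor cilium, read 8.93, 8.93 and 8.84 against 3.23, 3.29 and 3.04. In both genes the BALB/cJ arrays were dim while the B6By.C.132.54 and C57BL/6ByJ arrays (means 9.61 and 8.93) were among the bright values. Of the other 3 probe sets of each gene, 1 of Prune2 was called lower and 0 of Rpgrip1 were called.

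The long non-coding RNA Rmst, expressed in the developing midbrain, averaged 6.01 against 3.90. Myo7a, the unconventional myosin of hair cells, averaged 5.22 against 3.75, the unnamed transcript 1500004A13Rik 4.49 against 2.53, and Ang, the ribonuclease angiogenin, 5.15 against 3.81. In BALB/cJ replicate 2 Ang read 4.42, against 3.43 and 3.58 in the other arrays of the strain, and its call was lost in 5 of 17 alternative analyses, with adjusted p up to 0.0828. In the opposite direction Baiap2l1, which bends membranes at actin-rich edges, read 3.18, 3.32 and 3.52 in B6By.C.132.54 and 6.42, 6.26 and 6.18 in BALB/cJ, with both probe sets called. Pi4kb, a Golgi lipid kinase, averaged 3.77 against 5.08, Cfap54, a cilium protein, 3.55 against 4.67, and AI506816 3.26 against 4.47. For Rmst, Ang, Pi4kb and Cfap54 no other probe set of the gene was called. The somatostatin receptor gene Sstr1, at 2.70 against 3.89, and Zscan29, at 3.16 against 3.97, were below the median of all probe sets in both strains.

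How far probe sets of a gene moved together differed between genes. Of 355 genes with a called probe set, 75 had only that 1 probe set on the array. Of the other 280 genes, 238 had exactly 1 called probe set and 36 had at least 2 called in 1 direction and none in the other (15 higher, 21 lower). In 6 genes (Kcnj9, Pdxdc1, Prune2, Slc15a2, Slc25a51 and Sox11) probe sets were called in both directions. With the replicate block, 58 genes had several probe sets in 1 direction. Whether a probe set reports the level of a transcript or a sequence difference under its probes was not tested, since probe sequences were not used here.

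Among the genes that rose on several probe sets were Pisd-ps3, Vps52, Samd4, Clip4 and Sbsn. All 5 probe sets of Pisd-ps3, annotated as a pseudogene of phosphatidylserine decarboxylase, were called, and the brightest rose 2.17-fold, from 7.80 to 8.92. Since Pisd-ps3 resembles its parent gene, its signal cannot be assigned to it alone. C57BL/6ByJ stood higher still, at 9.36. Vps52, a subunit of the GARP complex that tethers vesicles at the Golgi, rose 2.55-fold with both probe sets. Samd4, an RNA-binding translational repressor, rose 2.31-fold with 3 of 4 probe sets. Clip4, a protein with a microtubule-binding CAP-Gly domain, rose 1.91-fold with 4 of 7, and Sbsn, a secreted protein first known from skin, rose 1.74-fold with 2 of 3. In the opposite direction Clasp2, which stabilises growing microtubule ends, fell 2.58-fold with 3 of 5 probe sets, and Supt16, a subunit of the FACT histone chaperone, fell 2.57-fold with both.

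Of the genes of glutamate transmission, Slc17a7, Grin2b and Grik1 rose in B6By.C.132.54. Slc17a7, which encodes VGLUT1, the transporter that loads glutamate into synaptic vesicles of the cortex, read 7.84, 8.21 and 7.43 in B6By.C.132.54 and 6.75, 6.25 and 6.77 in BALB/cJ, a rise of 2.36-fold (1.24 ± 0.20, adjusted p = 0.0088). It was the only 1 of 9 glutamate and GABA transport and synthesis genes to be called, and the subcortical transporter gene Slc17a6 differed by 0.04 ± 0.17. Of 15 ionotropic glutamate receptor genes, 2 rose and 13 were not called, beside 0.588% of all genes called higher. Grin2b, the NMDA receptor subunit GluN2B, read 6.43, 6.48 and 6.34 against 5.52, 5.12 and 5.58, a rise of 2.02-fold (adjusted p = 0.00191), and its other 3 probe sets were not called. Grik1, a kainate receptor subunit, averaged 4.35 against 3.41, and its call was lost in 4 of 16 alternative analyses. The other probe set of Grik1 was not called. The 9 genes of metabotropic glutamate receptors and their partners, 10 GABA receptor genes and 14 vesicle release genes held 0 calls by limma, with the replicate block or without it. Of these genes, 1, a GABA receptor gene, had an unadjusted p under 0.05, beside 7.5% of all probe sets.

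Of 16 genes of alcohol and aldehyde metabolism, 2 rose, where 0.588% of all genes were called higher. Aldh1a1, which oxidises retinaldehyde and is found in dopamine neurons, read 8.32, 8.05 and 7.86 in B6By.C.132.54 and 6.85, 6.73 and 6.62 in BALB/cJ. The rise was 2.54-fold (1.34 ± 0.13, adjusted p = 0.000294), and its only probe set kept the call in every alternative analysis run. Aldh7a1, which acts in lysine breakdown, rose 1.64-fold (adjusted p = 0.0211), but lost the call in 6 of 17 alternatives. The other 2 probe sets of Aldh7a1 were not called. Aldh2, the main mitochondrial enzyme of acetaldehyde oxidation, differed by -0.10 ± 0.12, and Cat (catalase) by -0.19 ± 0.35.

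Of 18 glutathione and redox genes, 2 fell, beside 0.517% of all genes. Glo1, which detoxifies methylglyoxal, read 8.48, 8.58 and 8.15 against 9.29, 9.46 and 9.50, so that all BALB/cJ arrays were the higher. It fell 2.03-fold (adjusted p = 0.000776) with 3 of 4 probe sets called. Gsr, glutathione reductase, fell 1.56-fold (adjusted p = 0.0378), a call lost in 9 of 17 alternatives, and its other probe set was not called. Hsd11b1, which regenerates active glucocorticoid inside cells, read 7.70, 7.52 and 7.49 against 6.67, 6.60 and 6.58, a rise of 1.94-fold (0.96 ± 0.09, adjusted p = 0.000165). The other 11 stress and glucocorticoid genes were not called, with Nr3c1, the glucocorticoid receptor, at 0.06 ± 0.11. Sc5d, a late enzyme of cholesterol synthesis, rose 1.95-fold (adjusted p = 0.00289) among 11 such genes of which the others were not called. The other 2 probe sets of Sc5d were not called. Prkca, protein kinase Cα, rose 1.39-fold (adjusted p = 0.0154) and the neuropeptide gene Nts by 0.58 on the log2 scale (adjusted p = 0.0384). The call was lost in 5 of 17 alternatives for Prkca and in 11 of 17 for Nts. The other 2 probe sets of Prkca were not called.

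**Figure D3:**
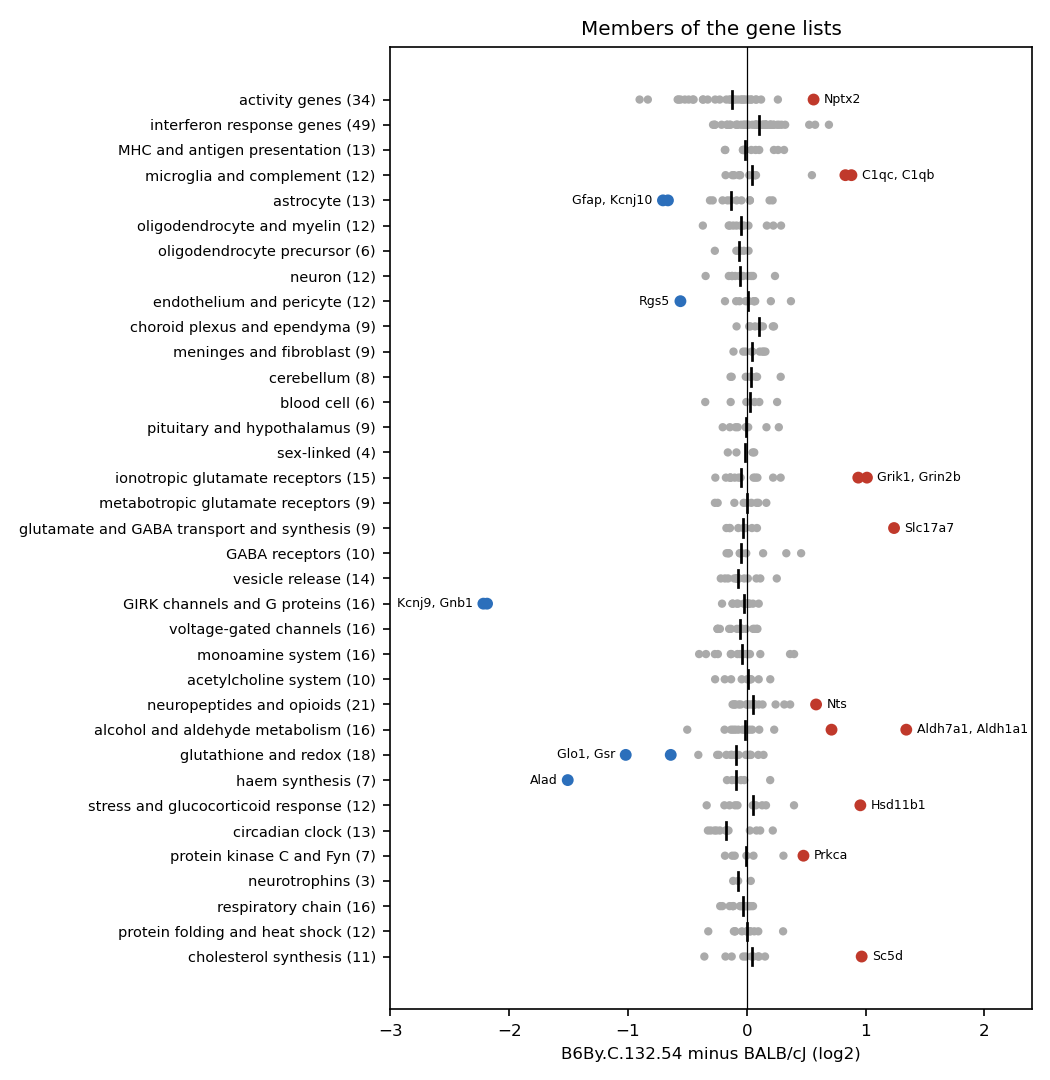
Each point is a measured member of 1 of 35 gene lists (y axis, with the number measured) at its difference B6By.C.132.54 minus BALB/cJ on the log2 scale (x axis). Red and blue points are members called higher and lower, with their names, grey points are members not called, and black bars are list medians. In each list 2 or fewer members were called, and the list medians lie between -0.17 (circadian clock) and 0.11 (choroid plexus and ependyma).

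Among markers of brain cell types, 2 of 12 microglial genes were higher, and 2 of 13 astrocyte genes and 1 of 12 vascular genes were lower, where 1.1% of all genes were called in either direction. C1qb and C1qc encode chains of the complement component C1q, which microglia make. C1qb read 7.80, 8.19 and 7.80 against 6.89, 7.10 and 7.17, and rose 1.84-fold (adjusted p = 0.00674). The other 2 probe sets of C1qb were not called. C1qc rose 1.78-fold (adjusted p = 0.00475), and C1qa, the neighbouring chain gene, differed by -0.06 ± 0.10. The other 10 of 12 microglia and complement genes were not called; Tyrobp, a signalling adaptor, had a difference of 0.55 (adjusted p = 0.126, and 0.0366 with the block). The summed linear intensity of the 12 genes, with C1qb and C1qc included, was 1682 to 1872 in B6By.C.132.54 and 1482 to 1667 in BALB/cJ. Of the 12 differences, 7 were above 0 and 5 below, with a median of 0.04, so the list did not rise as a whole.

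Gfap, the intermediate filament of astrocytes, read 7.24, 7.47 and 7.34 against 7.99, 8.09 and 8.09, a fall of 1.63-fold (adjusted p = 0.0238), and all 3 of its probe sets were called. Kcnj10, the glial potassium channel Kir4.1, fell 1.58-fold (adjusted p = 0.016). Its call was lost without each BALB/cJ array in turn, with adjusted p between 0.0562 and 0.0821, and that of Gfap was lost in 6 of 17 alternatives. The other 11 astrocyte genes were not called, and the summed intensity of the 13 was 5315 to 6452 against 6418 to 6497. Rgs5, a pericyte regulator of G protein signalling, fell 1.47-fold (adjusted p = 0.0361) among 12 vascular genes, and the call was lost in 9 of 17 alternatives. The other 3 probe sets of Rgs5 were not called. In bulk tissue, fewer cells of a type and less RNA per cell cannot be told apart. The lists of neurons, oligodendrocytes, their precursors, choroid plexus, meninges, cerebellum, blood cells, pituitary and hypothalamus held 0 calls by limma with the block or without it, and 0 to 2 members of each had an unadjusted p under 0.05. The same held for the sex-linked, voltage-gated channel, acetylcholine, circadian clock, neurotrophin, respiratory chain and heat shock lists. The 16 monoamine genes also held 0 calls, and 3 of them had an unadjusted p under 0.05. Over all probe sets, 7.5% had an unadjusted p under 0.05.

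Genes induced by neuronal activity are transcribed within minutes of synaptic input or stress, and comprise transcription factors such as Fos, effectors that act at synapses, and enzymes that feed back on the signal. All 34 listed activity genes were measured, and 1 rose while the other 33 were not called, where 0.588% of all genes were called higher. The differences of 25 genes were below 0 and those of 9 above 0 (73.5% below, against 58.2% of all genes), with a median of -0.13 against -0.02 over all genes. C57BL/6ByJ minus BALB/cJ had a median of -0.10 over the list. Without replicate 2 of B6By.C.132.54 the list median was -0.20. With the replicate block, 3 genes fell (Junb, Npas4 and Btg2) and Nptx2 rose. The arrays did not overlap in 8 genes lower and 2 higher in B6By.C.132.54, where over all genes 5.83% were lower without overlap and 3.94% higher. A lean below 0 was not particular to the activity genes. The median was -0.17 over the circadian clock list and -0.135 over the astrocyte list. In the voltage-gated channel and respiratory chain lists 75% of the differences were below 0. An unadjusted limma p under 0.05, in either direction, was found for 11 of the 34 activity genes, beside 7.5% of all probe sets. It was found for 2 of 13 circadian clock and 4 of 13 astrocyte genes. The voltage-gated channel and respiratory chain lists each had 1 of 16.

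Among the 18 transcription factors, 14 had differences below 0 and the median was -0.12. Junb, a partner of Fos in the AP-1 dimer, read 6.68, 7.37 and 6.70 in B6By.C.132.54 and 7.63, 7.92 and 7.91 in BALB/cJ. The arrays did not overlap, but replicate 2 of B6By.C.132.54 stood well above the other arrays of its strain. The difference was -0.90 ± 0.21 (adjusted p = 0.081, and 0.00282 with the block). Npas4, which is induced by calcium entry through synaptic activity, read 3.97, 4.41 and 3.68 against 4.73, 5.12 and 4.70, a difference of -0.83 ± 0.23 (adjusted p = 0.195, and 0.00487 with the block). Fos read 7.82, 8.40 and 7.65 against 8.47, 8.58 and 8.50, with a difference of -0.56 (adjusted p = 0.365, and 0.0825 with the block).

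In these genes the numbered pairs of arrays moved together only in part. For Npas4 the differences of arrays with the same number were -0.77, -0.72 and -1.01, and both strains were highest in replicate 2. For Junb they were -0.95, -0.55 and -1.21, since in replicate 3 B6By.C.132.54 fell back and BALB/cJ did not. For Fos they were -0.65, -0.18 and -0.85. Egr3 varied with replicate number without a strain difference. Replicate 1 read 7.62 for B6By.C.132.54, 7.38 for BALB/cJ and 7.31 for C57BL/6ByJ, whereas in replicates 2 and 3 the 3 strains read between 6.02 and 6.49. Its difference was 0.04 ± 0.47. Nr4a3, an orphan nuclear receptor, differed by 0.04, and its sign turned without B6By.C.132.54 replicate 2 and without BALB/cJ replicate 1.

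Of the 6 synaptic effectors, 4 had differences above 0. Nptx2, a secreted pentraxin that gathers AMPA receptors at excitatory synapses on interneurons, read 4.49, 4.64 and 4.63 against 4.20, 3.94 and 3.93. It rose 1.48-fold (0.56 ± 0.12, adjusted p = 0.0411, and 0.0383 with the block), both of its probe sets were called, and the call was lost in 10 of 17 alternatives, with adjusted p up to 0.203. The neurotrophin gene Bdnf read 6.00, 6.06 and 6.00 against 5.51, 5.86 and 5.91 (adjusted p = 0.614). Homer1, a scaffold of the postsynaptic density, differed by 0.01 ± 0.08. Arc, which removes AMPA receptors from synapses, read 7.41, 8.26 and 7.37 against 8.21, 8.19 and 8.21, so that replicate 2 of B6By.C.132.54 lay just above the BALB/cJ arrays and the others lay below them.

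Of the 10 signalling feedback genes, 9 had differences below 0 and the median was -0.25. Btg2, an antiproliferative regulator of mRNA decay, read 6.60, 6.98 and 6.85 in B6By.C.132.54 and 7.15, 7.48 and 7.54 in BALB/cJ (-0.57 ± 0.15, adjusted p = 0.155, and 0.0116 with the block). The MAP kinase phosphatase gene Dusp1 read 7.98, 8.30 and 7.70 against 8.42, 8.41 and 8.52 (adjusted p = 0.315). The summed linear intensity of the 34 genes was 3996 to 5141 in B6By.C.132.54, 5162 to 5239 in BALB/cJ and 4238 to 4928 in C57BL/6ByJ. The BALB/cJ sums were the highest and the closest together, and those of both other strains varied more between arrays.

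**Figure D4:**
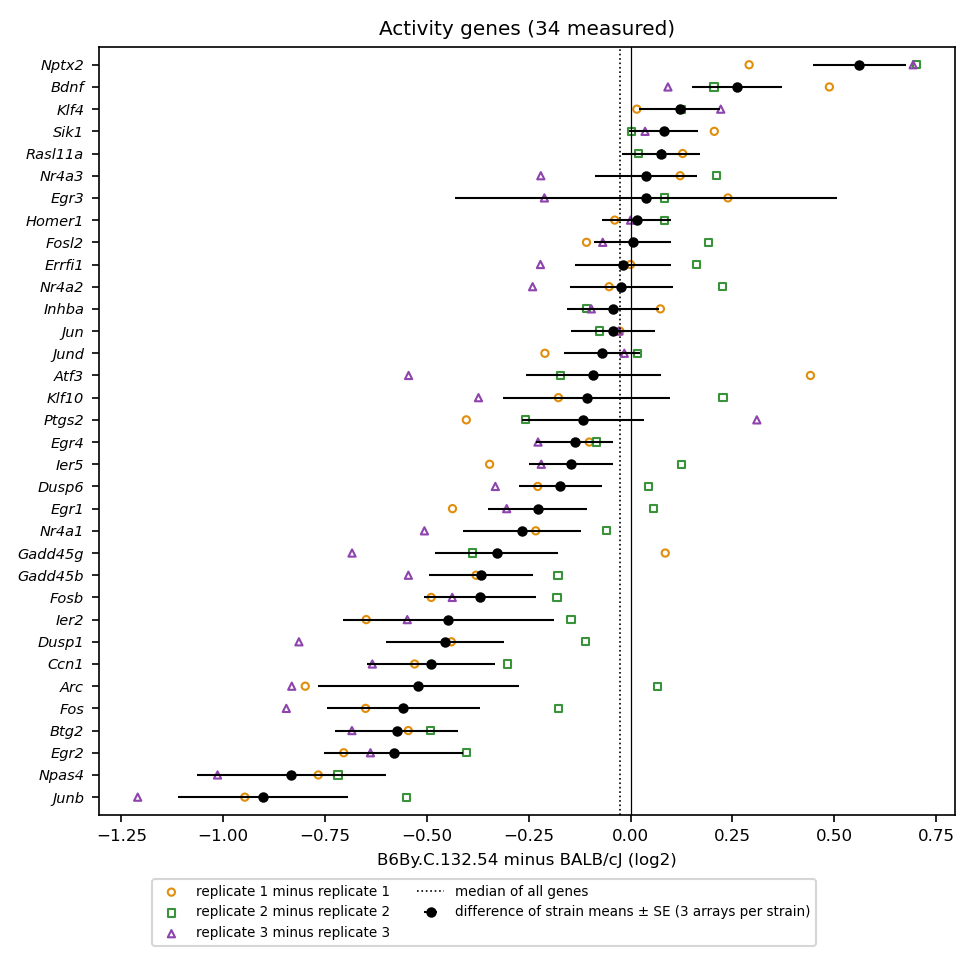
Difference B6By.C.132.54 minus BALB/cJ on the log2 scale (x axis) of the 34 activity genes (y axis), ordered by size. Black points are differences of strain means with their SE (3 arrays per strain), open symbols are differences between arrays of the same replicate number, and the dotted line is the median of all genes, -0.02. From Dusp6 at -0.17 down to Junb at -0.90, most open symbols lie below 0.

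Many activity genes carry a cyclic AMP response element, to which the factor CREB binds, close to their start. The 250 bases before the start, taken from RefSeq on GRCm38.p6, were found for 27 of the 34 genes. The motif TGACGTCA, which reads the same on both strands, was in the window of 3 of these 27 (11.1%: Btg2, Dusp1 and Errfi1), of 0 of 38 interferon response genes and of 1.77% of all 27025 genes with a window. Since Btg2 fell with the block and holds the motif, its window is shown, at chr1:134079156-134079405 on the minus strand of GRCm38.p6, with the motif, which starts 166 bases before the start of the gene, in capitals.
Btg2: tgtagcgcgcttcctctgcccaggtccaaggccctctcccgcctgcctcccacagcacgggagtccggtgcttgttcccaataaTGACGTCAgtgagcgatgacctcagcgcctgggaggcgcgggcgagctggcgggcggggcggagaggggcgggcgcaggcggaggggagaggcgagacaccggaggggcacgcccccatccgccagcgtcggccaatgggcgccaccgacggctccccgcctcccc
The other genes that fell with the block, Junb and Npas4, are not among the 3 genes with these letters in the window. Whether they are among the 27 genes with a window is not given here, so an absence of the motif cannot be read from this.

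Interferon response genes are induced through the receptors for type I and type II interferon and the factors STAT and IRF, and include sensors of viral nucleic acid, antiviral effectors and large GTPases. Of 52 listed genes, 49 were measured, and limma called 0, where 1.1% of all genes were called. An unadjusted p under 0.05 was found for 6 of the 49, beside 7.5% of all probe sets. Trim30a alone was called with the block. The differences of 34 genes were above 0 and those of 15 below 0 (69.4% above, against 41.8% of all genes), with a median of 0.10. C57BL/6ByJ minus BALB/cJ had a median of -0.003 over the list. The median was 0.03 without replicate 3 of B6By.C.132.54, 0.05 without replicate 1 of BALB/cJ and 0.15 without replicate 1 of B6By.C.132.54. In 16 of the 49 genes both strains were dim. A lean above 0 was also found in the choroid plexus and ependyma list, with 88.9% above 0 and a median of 0.11.

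By role, all 7 GTPases had differences above 0 (median 0.16), as had 10 of 14 antiviral effectors (median 0.13) and 11 of the 14 remaining induced genes (median 0.12). Of the 8 receptors and sensors 4 lay above 0, and of the 6 transcription factors 2. Ifit3, which binds viral RNA together with its relatives, read 5.22, 6.15 and 5.57 in B6By.C.132.54 and 4.96, 5.16 and 4.74 in BALB/cJ. Its lowest B6By.C.132.54 array lay only just above the highest BALB/cJ array, and the difference was 0.69 ± 0.20 (adjusted p = 0.217, and 0.0501 with the block). Trim30a, a modulator of Toll-like receptor signalling, read 4.30, 4.73 and 4.41 against 3.97, 3.73 and 4.01 (0.57 ± 0.12, adjusted p = 0.0509, and 0.0432 with the block). In both genes replicate 2 of B6By.C.132.54 was the highest array.

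In other members a different array was the highest. Iigp1, an immunity-related GTPase, read 3.35, 3.76 and 4.20 against 3.37, 3.17 and 3.21, and Irgm2 3.55, 3.94 and 4.29 against 3.71, 3.90 and 3.58, with replicate 3 the highest in both. The receptor genes were not called: Ifnar1 differed by -0.27 ± 0.16, Ifnar2, whose arrays did not overlap, by -0.21 ± 0.09 (adjusted p = 0.643), and Ifngr1 by -0.02 ± 0.09. The factor gene Irf3 read 5.75, 5.89 and 5.89 against 5.85, 6.25 and 6.29 (adjusted p = 0.627), and the sensor gene Dhx58 averaged 3.99 against 3.74 (adjusted p = 0.761). The summed intensity of the 49 genes was 1432 to 1699 in B6By.C.132.54, 1428 to 1540 in BALB/cJ and 1431 to 1526 in C57BL/6ByJ, so that the ranges overlapped. Of the 13 measured genes of MHC and antigen presentation limma called 0, with the block or without it. An unadjusted p under 0.05 was found for 0 of these 13, beside 7.5% of all probe sets.

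**Figure D5:**
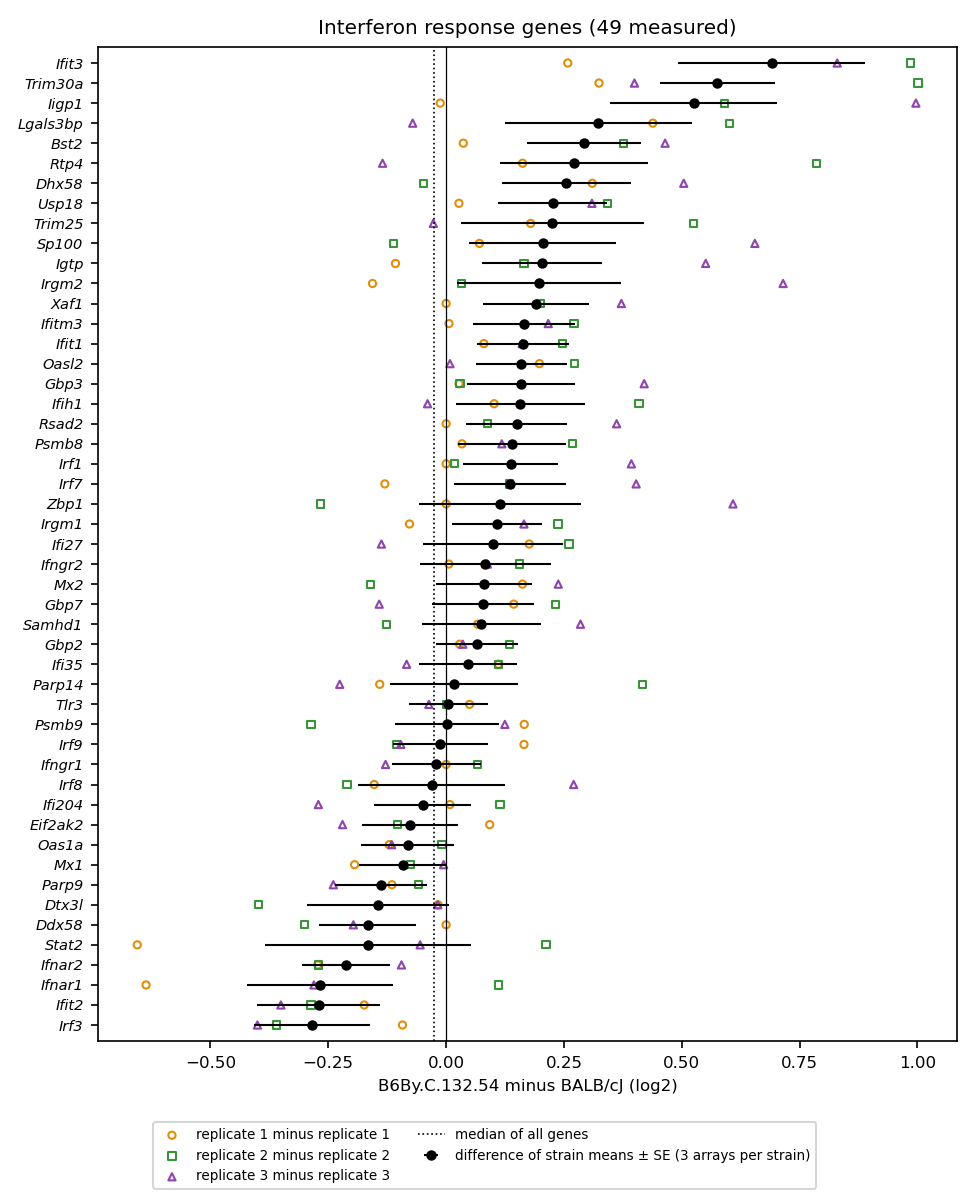
Difference B6By.C.132.54 minus BALB/cJ on the log2 scale (x axis) of the 49 interferon response genes (y axis), ordered by size, drawn as for the activity genes: black points with SE (3 arrays per strain), open symbols for arrays of the same replicate number, dotted line for the median of all genes. Ifit3, at 0.69, and Trim30a, at 0.57, stand at the top and Irf3, at -0.28, at the bottom.

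Promoters of interferon-induced genes often hold a repeat of GAAA, the interferon-stimulated response element that IRF and STAT complexes bind. The letters GAAANNGAAA were searched on both strands of the same windows, and overlapping matches were allowed. They were found in 13 of 38 interferon response genes with a window (34.2%), in 4 of 27 activity genes (14.8%) and in 3.46% of all genes with a window. The windows of Ifit3 and Trim30a are shown because these genes had the largest differences of the list. That of Ifit3 lies at chr19:34583279-34583528 on the plus strand and that of Trim30a, one of 2 starts in the table, at chr7:104465194-104465443 on the minus strand of GRCm38.p6. Capitals mark the matches, which are written here on the reverse strand.
Ifit3: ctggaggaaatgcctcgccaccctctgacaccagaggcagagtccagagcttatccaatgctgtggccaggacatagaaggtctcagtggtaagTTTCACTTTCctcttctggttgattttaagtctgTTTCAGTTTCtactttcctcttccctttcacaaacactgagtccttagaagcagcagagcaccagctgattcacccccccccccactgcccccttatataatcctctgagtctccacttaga
Trim30a: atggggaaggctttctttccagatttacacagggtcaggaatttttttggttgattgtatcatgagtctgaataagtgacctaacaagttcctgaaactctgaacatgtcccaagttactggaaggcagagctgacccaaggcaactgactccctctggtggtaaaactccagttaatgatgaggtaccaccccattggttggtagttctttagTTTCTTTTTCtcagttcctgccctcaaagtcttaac
The matches begin 156 and 122 bases before the start in Ifit3 and 36 bases before it in Trim30a. Neither gene was called when no alternative was applied, and no binding was measured. Some alternatives without the block called Trim30a, and Ifit3 was called without B6By.C.132.54 replicate 1 (limma adjusted p = 0.0417).

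By chromosome, 21 of 1087 genes on chromosome 4 were called (1.93%, 14 higher and 7 lower), which was the highest share without the replicate block, followed by 12 of 641 on chromosome 14 (1.87%) and 11 of 622 on chromosome 12 (1.77%). With the block the order changed, and chromosome 8 had the highest share (29 genes, 3.11%), ahead of chromosome 14 (2.96%) and chromosome 4 (2.67%). Cap1, Gnb1, Alad, Casp9, Efhd2, C1qb and C1qc are among the genes on chromosome 4. Without the block, the lowest shares of the autosomes were on chromosome 15, with 2 of 724 (0.276%), and chromosome 9, with 4 of 1002 (0.399%). Chromosome 6 held 6 of 992 (0.605%), Grin2b among them, and the X chromosome 4 of 617 (0.648%). These shares were set against 1.1% over all genes and carry no test.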

How the data were processed

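Total RNA (7 µg) from pools of 10 hemispheres was labelled and hybridised to 9 Affymetrix Mouse Genome 430 2.0 arrays, per the labels' protocols. The authors deposited linear signal intensities, 1 for each probe set on each array. GCOS and RMA are the tools in the submitters' processing notes, and their versions, order and settings are not given in the sources used here. Of 16488 probe sets (36.6%), at least 2 of the 6 arrays compared had the same deposited value. Each array was 1 sample of a strain by its title, and the number of arrays limits the precision.

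The log2 of each intensity was used, without a pseudocount. Of 45101 probe sets, 64 controls were left out. By the platform annotation 34945 probe sets had 1 gene, 932 had several and 9160 had none. Symbols and chromosomes came from RefSeq on GRCm38.p6 by Entrez identifier (34741 probe sets), and promoter sequences from the same assembly by symbol. All 9 arrays entered 1 linear model with a mean for each strain, in limma 3.58.1 under R 4.3.3 (6 residual degrees of freedom, two-sided moderated test, tested on simulated data). 

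Named genes were called, with arrays of the strains not overlapping. They were the 10 largest differences each way with both means at or above the median probe set, the 6 largest each way with a dimmer strain, the 6 each way with the largest median over several called probe sets, and every called list member. For the activity and interferon lists, the 3 uncalled members each way with the lowest p were added if 1 strain mean or more was at or above that median. Other genes named are list members given for their role, chosen with their values known. The members and the 35 lists (508 genes, 459 measured) were chosen with earlier results of these data known.

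Same-numbered arrays of B6By.C.132.54 and BALB/cJ had deviations from their strain means that correlated at 0.53, 0.18 and 0.21 over all probe sets. Every other same-numbered pair exceeded 0.1 too, so the replicate number was taken to pair arrays. Some pairs of replicates 2 and 3 also exceeded 0.1, such as B6By.C.132.54 replicate 2 with BALB/cJ replicate 3 (0.105) and with C57BL/6ByJ replicate 3 (0.153). Replicate 1 was thus set apart clearly, and replicates 2 and 3 were not. The design text describes 3 batches with every strain in each, and no label ties the number to a batch. Alternatives were the block, each array left out, only the 6 arrays, quantile normalization, median centring, a pseudocount of 16, an intensity trend, dim probe sets left out and the mean over probe sets.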

Additional observations from a re-analysis of the deposited data

How the results depend on the processing

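The replicate block raised the called genes from 201 to 319 and those supported by several probe sets from 36 to 58; it also brought Junb, Npas4, Btg2 and Trim30a past the threshold, with adjusted p of 0.00282, 0.00487, 0.0116 and 0.0432. It ended no call of a named gene. Junb and Trim30a also passed in alternatives without the block. For Junb these were quantile normalization (limma adjusted p = 0.0443) and leaving out B6By.C.132.54 replicate 2 (0.0177). For Trim30a they were quantile normalization (0.0376), leaving out B6By.C.132.54 replicate 1 (0.0384) and leaving out dim probe sets (0.0392). Ifit3 passed without B6By.C.132.54 replicate 1 (0.0417), and Fos passed without replicate 2 of that strain (0.0447). Leaving out 1 array gave 391 to 514 called probe sets (575 with all arrays), 137 to 190 called genes, 24 to 34 genes with several probe sets, an activity median of -0.201 to -0.0996 and an interferon median of 0.0295 to 0.152, the lowest without B6By.C.132.54 replicate 3. The other settings gave 136 to 319 called genes, the fewest with only the 6 arrays, and kept the sign of both medians. Leaving out 1 array moved Nr4a3 (0.04 with all arrays) between -0.0928, without B6By.C.132.54 replicate 2, and 0.114, with -0.0585 without BALB/cJ replicate 1. It moved Homer1 (0.01 with all arrays) between -0.00724, without BALB/cJ replicate 2, and 0.0395. Of the 56 called named genes, 45 kept their call in each alternative run and 11 lost it in at least 1, namely Nptx2, Nts, Rgs5, Gsr, Gfap, Aldh7a1, Prkca, Ang, Grik1, Kcnj10 and Zscan29. Apart from leaving out arrays, the cause of these changes was not tested. With 3 pools per strain the median SE of a difference was 0.11 on the log2 scale. The smallest difference among the genes called was 0.42. Whether a difference was called depended on the SE of its own probe set. Differences larger than 0.42 were missed, such as Junb at -0.90 ± 0.21 with neither the block nor another alternative.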

Other observations

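Several called genes outside the lists are known from glia and are named here with their values known and without the alternative analyses. List members with adjusted p in a like range lost calls, such as Nptx2 (limma adjusted p = 0.0411) in 10 of 17 alternatives and Gfap (0.0238) in 6. Serpina3n, an acute-phase protease inhibitor of reactive astrocytes, read 5.31, 5.68 and 5.76 in B6By.C.132.54 and 6.70, 7.07 and 6.87 in BALB/cJ, a fall of 2.45-fold (limma adjusted p = 0.000602). Fabp7, the fatty acid binding protein of radial glia and astrocytes, fell 1.77-fold (adjusted p = 0.0019), and Kcnj16, which encodes the channel partner Kir5.1 of Kir4.1, fell 1.53-fold (adjusted p = 0.042). Lpl, lipoprotein lipase, read 6.20, 6.22 and 5.89 against 7.48, 7.51 and 7.32, a fall of 2.51-fold. Cst3, the secreted protease inhibitor cystatin C, was the brightest of these, at 11.53 to 11.68 against 11.99 to 12.05, and fell 1.34-fold (adjusted p = 0.027). In the opposite direction Fcrls, a microglial gene of the Fc receptor-like family, read 6.06, 6.31 and 5.98 against 5.06, 4.94 and 4.77, a rise of 2.28-fold (adjusted p = 0.000432). The astrocyte enzyme gene Etnppl rose 1.78-fold (adjusted p = 0.013) and Agt, which encodes angiotensinogen, rose 1.44-fold (adjusted p = 0.0249), so that astrocyte genes moved both ways.

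Other called genes, also named with their values known and without the alternative analyses, were Ndufa12, Dap3, Atpaf1 and Cyfip2. Ndufa12, a subunit of respiratory complex I, read 10.39, 10.34 and 10.13 against 9.50, 9.36 and 9.25 and rose 1.89-fold (adjusted p = 0.000704), while its other 3 probe sets were not called. Dap3, a protein of the small mitochondrial ribosomal subunit, rose 1.87-fold, and Atpaf1, an assembly factor of the ATP synthase, 1.95-fold. The 16 measured genes of the respiratory chain list, in which Ndufa12 is not included, held 0 calls by limma with the block or without it. Of these, 1 had an unadjusted p under 0.05, beside 7.5% of all probe sets, and 12 had differences below 0, beside 58.2% of all genes. Cyfip2, a member of the actin-regulating WAVE complex, rose 1.64-fold (9.34, 9.30 and 9.17 against 8.59, 8.56 and 8.52).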
